A study of Rattus norvegicus with 6 samples.

Results

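The genes for 3 Toll-like receptors (Tlr2, Tlr3, Tlr4), their adaptor Myd88, 4 NF-kappaB subunits (Rela, Relb, Nfkb1, Nfkb2) and 2 inhibitors of the pathway (Nfkbia, Tnfaip3) were followed in the colonic epithelium of rats given melatonin or vehicle. They were chosen by name, and RefSeq accessions matched 8 of the 10 to a row among the 13104 genes and unmatched transcripts of the table, while no row was found for Relb or Tnfaip3. The 6 rats were adult Wistar males, all pinealectomized, and RNA was taken from the innermost, epithelial layer of their colon, each animal being its own sample. 3 animals (numbers 4, 5 and 6) received melatonin at 1 mg/kg and 3 (numbers 1, 2 and 3) received vehicle, 2.5% ethanol in PBS, both injected intraperitoneally at the start of subjective night, 4 h before tissue was taken. Values are FPKM, fragments scaled by transcript length and by library size, made by the authors for each animal, and a level can therefore be compared between genes. Each group had n = 3 animals.

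Toll-like receptors recognise microbial molecules: Tlr4 senses lipopolysaccharide, Tlr2 senses lipoproteins together with a partner receptor, and Tlr3 senses double-stranded RNA. Tlr2 and Tlr4 signal through the adaptor MyD88, whereas Tlr3 uses another adaptor, and these routes free NF-kappaB dimers from their inhibitors so that they enter the nucleus. Nfkbia (IkappaB alpha) and Tnfaip3 (A20) restrain the pathway and are themselves classical NF-kappaB targets, so their transcripts are often read as a feedback of its activity. In the colon the epithelium faces a dense microbiota, and the pathway supports barrier defence there.

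None of the 8 measured genes passed the test between melatonin and vehicle. limma on log2(FPKM + 1), adjusted over 10137 features, called 0 of 8, beside a background of 0% higher and 0% lower over all features, and the smallest adjusted p of all features was 0.182. Without adjustment, 0 of 8 had a limma p below 0.05, beside 3.75% of all features. The log2 changes were above 0 for 7 of the 8, beside 46% of all features, and their median was 0.17, beside -0.02 over all features. Each melatonin animal stood above each vehicle animal for 2 of the 8, Tlr3 and Rela, beside 4.04% of all features, and for 0 of 8 the melatonin animals all stood below, beside 4.33%. With 3 animals against 3, an exact permutation test of one gene cannot go below p = 0.1, two-sided.

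**Figure D1:**
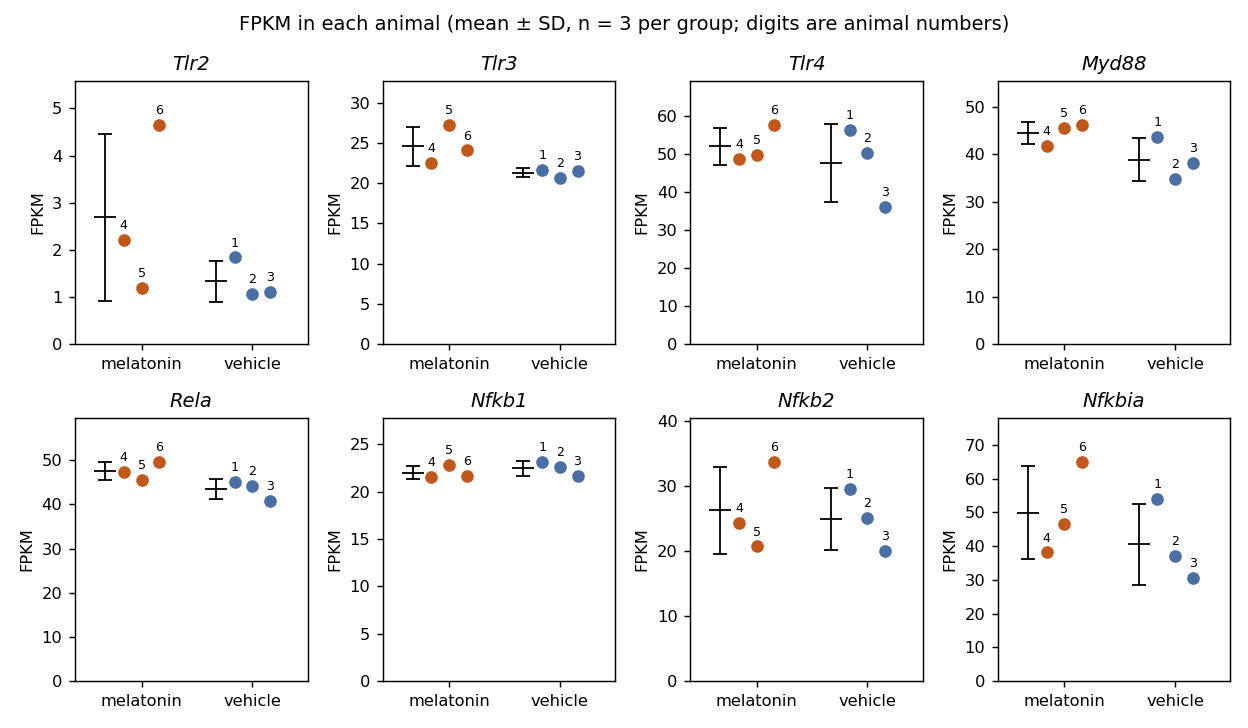
FPKM of the 8 measured genes in each animal, melatonin left and vehicle right in each panel, with animal numbers above the points and the mean ± SD (n = 3) as a bar at the left of each group. Tlr3 and Rela are the panels in which the groups do not overlap, and melatonin animal 6 holds the highest value in 6 of the 8 panels.

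The libraries held the epithelial markers their label calls for and were of similar depth. All 14 epithelial markers with a row, of 15 listed, had at least 1 FPKM, with Guca2a and Krt8 at the top, and their sum was 18788 to 20458 FPKM after melatonin and 19542 to 20547 FPKM after vehicle. The step size of low FPKM values gives an estimated 3280000 to 3570000 mapped fragments per library, so that a measured gene other than Tlr2 rested on 165 to 684 estimated reads per animal. Transcripts listed as markers of other cell types were present too. Of the macrophage and dendritic cell genes, Adgre1 and Itgam had a mean of 0.132 and 0.0967 FPKM, and Csf1r and Cd68 had 1.64 and 2.385 FPKM. Cd14 and C1qc, the highest of that list, had 123 and 7.61 FPKM. C1qb, Lyz2, C1qa and Cx3cr1 had 6.502, 6.42, 5.69 and 3.17 FPKM, all above the mean of Tlr2. Cd14 stood far above the rest of the list, and which cells it came from was not tested. Of the genes listed for neutrophils, Csf3r, Cxcr2 and Camp had a mean of 0.105, 0.0367 and 0.085 FPKM, and S100a9 and S100a8 had 5.75 and 2.10 FPKM. Ly6g6c, also on that list though it is not the neutrophil gene Ly6g, had 3.97 FPKM. In such bulk samples, fewer cells of a type and less RNA per cell cannot be told apart.

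Among the receptors, Tlr4 was the most abundant and Tlr2 the least. Tlr4 was listed at 48.7, 49.6 and 57.6 FPKM in melatonin animals 4, 5 and 6, against 56.2, 50.2 and 36.2 FPKM in vehicle animals 1, 2 and 3. The groups overlapped, with melatonin animal 6 highest, vehicle animal 1 next and vehicle animal 3 lowest. The means were 52.0 ± 4.90 FPKM after melatonin and 47.5 ± 10.3 FPKM after vehicle (SD, n = 3 each; log2 change 0.15 ± 0.17 SE, limma adjusted p = 0.974). Without vehicle animal 3 the sign turned, to a log2 change of -0.04.

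Tlr3 was listed at 22.5, 27.2 and 24.1 FPKM in melatonin animals 4, 5 and 6, against 21.7, 20.7 and 21.5 FPKM in vehicle animals 1, 2 and 3. All melatonin animals stood above all vehicle animals, but melatonin animal 4 exceeded vehicle animal 1 by 0.800 FPKM, which is less than the counting error of either value (1.39 FPKM from 261 estimated reads and 1.35 FPKM from 260). The means were 24.6 ± 2.41 FPKM after melatonin and 21.3 ± 0.544 FPKM after vehicle (SD, n = 3 each). The log2 change was 0.20 ± 0.12 SE (limma adjusted p = 0.972), with a 95% interval from -0.08 to 0.47. Without melatonin animal 5 it was 0.12.

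The sum of interferon-stimulated genes, a list that holds no member and shares Cxcl10 with the targets below, was highest in melatonin animals 5 and 6. These were the animals with the highest Tlr3 and the highest Myd88. The summed level of the list was 249.7, 612 and 739.6 FPKM in melatonin animals 4, 5 and 6, against 278, 233.5 and 272 FPKM in vehicle animals 1, 2 and 3. Of the 32 listed symbols, 29 had a row. Ddx58, without a row, is an older symbol of Rigi, which had a row. Ifi27l2b was the most abundant gene of the list, and Gbp2 alone had 139.67 FPKM in melatonin animal 6. Ifi35 was highest in vehicle animal 1, at 22.56 FPKM, and lowest in melatonin animal 6, at 13.88 FPKM. Mx1 was higher in vehicle animal 3 (5.3 FPKM) than in melatonin animal 5 (3.88 FPKM). Mx2 was higher in vehicle animal 2 (8.4 FPKM) than in melatonin animal 6 (6.99 FPKM). The other genes of the list with a row were highest in melatonin animals 5 and 6. The part of this list in the values of Tlr3 and Myd88 was not tested.

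Tlr2 was near the lower limit of what these libraries can measure. It was listed at 2.22, 1.19 and 4.65 FPKM in melatonin animals 4, 5 and 6, against 1.84, 1.06 and 1.10 FPKM in vehicle animals 1, 2 and 3. These values stand on 9 to 43 estimated reads, the highest number in melatonin animal 6. Counting error gives melatonin animal 6 an exact 95% Poisson interval of 3.37 to 6.26 FPKM, which lies above that of vehicle animal 1, at 1.07 to 2.95 FPKM, while the interval of melatonin animal 5, at 0.594 to 2.13 FPKM, overlaps all vehicle intervals. Such intervals cover counting error only. The means were 2.69 ± 1.78 FPKM after melatonin and 1.33 ± 0.439 FPKM after vehicle (SD, n = 3 each; log2 change 0.57 ± 0.37 SE, limma adjusted p = 0.972). In the authors' deposited table the log2 ratio of the group means for Tlr2 is 1.01, a scale without a pseudocount. Without melatonin animal 6 the log2 change was 0.20.

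**Figure D2:**
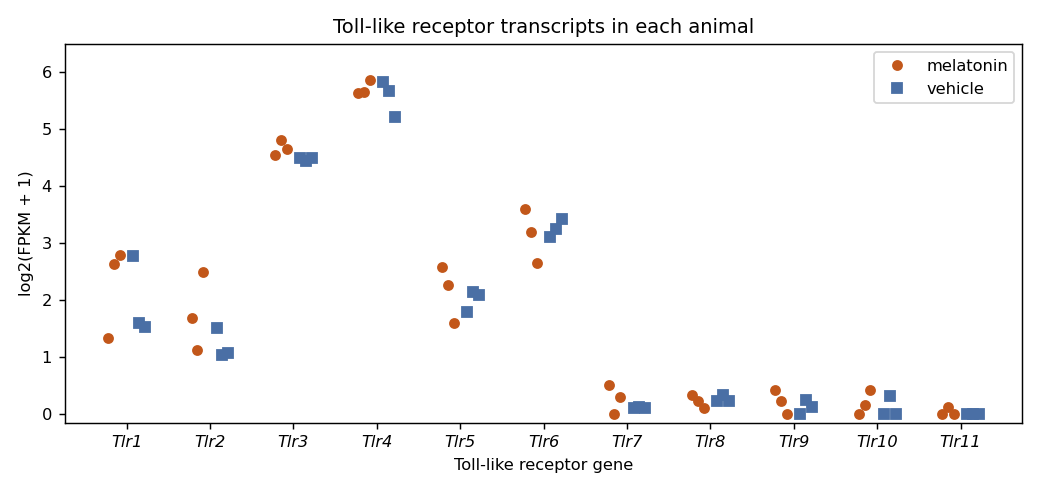
Level of 11 Toll-like receptor genes as log2(FPKM + 1) in each animal, melatonin as circles at the left and vehicle as squares at the right of each gene. Tlr4 and Tlr3 stand above the other receptors in all 6 animals, and Tlr7 to Tlr11 lie near 0.

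The rest of the receptor family, picked out by name after the values were seen, places these levels. Tlr6, a partner of Tlr2, averaged 8.19 ± 2.89 FPKM after melatonin and 8.65 ± 1.04 FPKM after vehicle (SD, n = 3 each). The flagellin receptor Tlr5 averaged 3.63 ± 1.49 FPKM after melatonin and 3.04 ± 0.517 FPKM after vehicle. Tlr1, the other partner of Tlr2, was listed at 1.54, 5.19 and 5.91 FPKM in melatonin animals 4, 5 and 6, against 5.84, 2.03 and 1.88 FPKM in vehicle animals 1, 2 and 3. Tlr7, Tlr8, Tlr9, Tlr10 and Tlr11 had means from 0.0150 to 0.187 FPKM over the 6 animals, a level at which a gene is represented by a few reads at most. Receptors of this family share stretches of sequence, so a part of the reads of Tlr1, Tlr6 and Tlr10 may be divided between them.

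Myd88 stood at about the level of Tlr4. It was listed at 41.9, 45.6 and 46.2 FPKM in melatonin animals 4, 5 and 6, against 43.7, 34.8 and 38.3 FPKM in vehicle animals 1, 2 and 3. Melatonin animals 5 and 6 stood above all vehicle animals, and melatonin animal 4 lay below vehicle animal 1. The means were 44.6 ± 2.35 FPKM after melatonin and 38.9 ± 4.49 FPKM after vehicle (SD, n = 3 each; log2 change 0.20 ± 0.12 SE, limma adjusted p = 0.972), and the 95% interval ran from -0.07 to 0.46. The log2 change was 0.12 without vehicle animal 2 and 0.28 without vehicle animal 1.

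Of the NF-kappaB subunits, Rela was the most abundant and Nfkb1 the steadiest. Rela, the transactivating subunit of the classical dimer, was listed at 47.4, 45.6 and 49.7 FPKM in melatonin animals 4, 5 and 6, against 45.1, 44.3 and 40.8 FPKM in vehicle animals 1, 2 and 3. The groups did not overlap, but the lowest melatonin animal exceeded the highest vehicle animal by 0.500 FPKM, with a counting error of 2.29 FPKM and 2.28 FPKM on these values. The means were 47.6 ± 2.07 FPKM after melatonin and 43.4 ± 2.27 FPKM after vehicle (SD, n = 3 each; log2 change 0.13 ± 0.10 SE, limma adjusted p = 0.972, 95% interval -0.10 to 0.36).

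Nfkb1, which encodes the precursor of the classical partner of Rela, was listed at 21.6, 22.8 and 21.6 FPKM in melatonin animals 4, 5 and 6, against 23.2, 22.6 and 21.6 FPKM in vehicle animals 1, 2 and 3. The groups lay on top of each other, with a log2 change of -0.03 ± 0.11 SE (limma adjusted p = 0.984, 95% interval -0.28 to 0.22). Its coefficient of variation over the 6 animals was 3.20%, below the 5.74% that counting error alone would give at its estimated reads. Of the 2789 tested features with a mean of 20 to 60 FPKM, 0.681% had a lower coefficient of variation, and their median was 11.9%.

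Nfkb2, the precursor of the alternative pathway's subunit, varied between animals and not by group. It was listed at 24.3, 20.7 and 33.8 FPKM in melatonin animals 4, 5 and 6, against 29.6, 25.1 and 20.02 FPKM in vehicle animals 1, 2 and 3. The log2 change was 0.06 ± 0.21 SE (limma adjusted p = 0.983), and its sign turned to -0.13 without melatonin animal 6 and to -0.08 without vehicle animal 3.

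Nfkbia, the inhibitor that holds NF-kappaB in the cytoplasm, had the widest range of the 7 members above 5 FPKM. It was listed at 38.1, 46.6 and 65.1 FPKM in melatonin animals 4, 5 and 6, against 54.0, 37.0 and 30.5 FPKM in vehicle animals 1, 2 and 3. Melatonin animal 6 was highest and vehicle animal 1 second, so the groups overlapped. The means were 49.9 ± 13.8 FPKM after melatonin and 40.5 ± 12.1 FPKM after vehicle (SD, n = 3 each; log2 change 0.30 ± 0.24 SE, limma adjusted p = 0.972). The 95% interval corresponds to a fold between 0.835 and 1.82 on the log2(FPKM + 1) scale. Its coefficient of variation was 28.1%, against 6.57% from counting error, and 94.8% of the features of 20 to 60 FPKM had a lower one. The log2 change was 0.10 without melatonin animal 6, 0.12 without vehicle animal 3, 0.47 without melatonin animal 4 and 0.52 without vehicle animal 1.

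**Figure D3:**
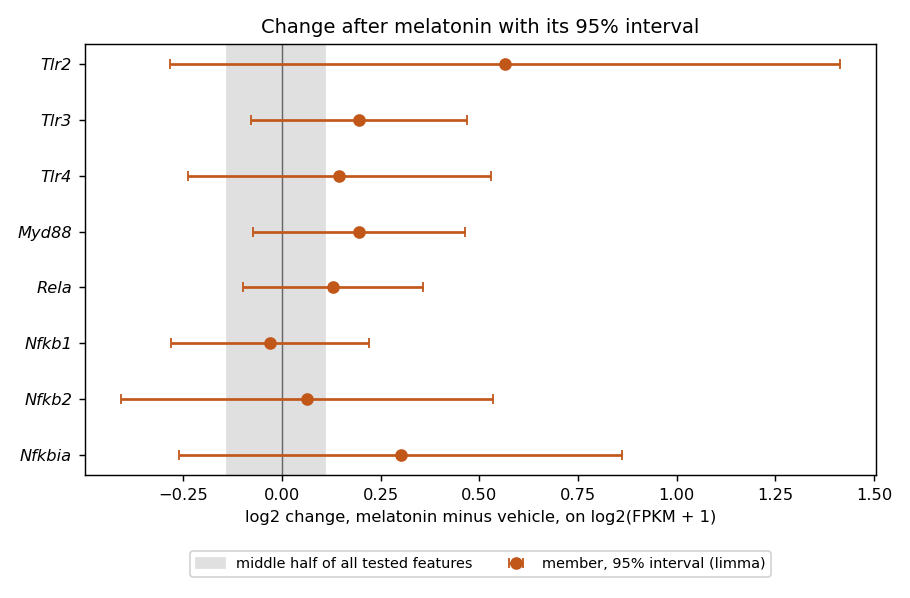
Log2 change of each measured gene, melatonin minus vehicle on log2(FPKM + 1), with its 95% interval from limma, and in grey the interquartile range of all tested features (-0.14 to 0.11). All 8 intervals include 0, and that of Tlr2 is the widest, from -0.28 to 1.42.

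The levels of the 8 genes fell into 3 tiers. Tlr4, Rela, Nfkbia and Myd88 had means over the 6 animals of 49.7, 45.5, 45.2 and 41.8 FPKM, and the ranges of neighbours in that order overlapped. Nfkb2, Tlr3 and Nfkb1 followed at 25.6, 22.9 and 22.2 FPKM and overlapped likewise. Myd88 stood above Nfkb2 in 6 of 6 animals, by 1.63 times on the means, and Nfkb1 above Tlr2 in 6 of 6, by 11.1 times.

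The promoters are shown here because the feedback genes of NF-kappaB are known to carry its binding motif, and because Nfkbia and Nfkb2 were among the 4 genes with their highest value in melatonin animal 6 and their lowest in vehicle animal 3. The sequences are those of RefSeq, build GRCr8, from 250 bases before to 50 after each gene's start as that table gives it, and 9 of the 10 genes were matched, all but Relb. In the windows of Nfkbia and Nfkb2, capitals mark the match to the kappaB consensus, a motif of 10 bases searched on either strand, and each holds 1 match. The Nfkbia window is chr6:78597023-78597322 on the minus strand and the Nfkb2 window chr1:255108124-255108423 on the plus strand, both written 5′ to 3′ along the gene.
Nfkbia: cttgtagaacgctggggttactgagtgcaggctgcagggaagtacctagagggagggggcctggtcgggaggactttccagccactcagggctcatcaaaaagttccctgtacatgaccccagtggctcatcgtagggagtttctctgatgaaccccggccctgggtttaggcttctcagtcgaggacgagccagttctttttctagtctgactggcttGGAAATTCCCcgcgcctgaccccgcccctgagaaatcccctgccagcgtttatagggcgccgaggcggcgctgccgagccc
Nfkb2: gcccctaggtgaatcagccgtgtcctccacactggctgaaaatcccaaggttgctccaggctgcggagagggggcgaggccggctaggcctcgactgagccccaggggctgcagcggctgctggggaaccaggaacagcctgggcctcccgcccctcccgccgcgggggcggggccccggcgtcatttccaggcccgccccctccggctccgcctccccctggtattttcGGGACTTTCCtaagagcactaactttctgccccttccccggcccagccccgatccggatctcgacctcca

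Nfkbia held GGAAATTCCC at 31 bases before its start, on the strand opposite to the gene, and Nfkb2 held GGGACTTTCC at 20 bases before its start. Shorter windows, 1 match each for the other genes and shown to compare the motif between the members, have that match alone in capitals at their centre and lie at chr2:226805440-226805469 (minus strand) for Nfkb1, chr1:15544027-15544056 (minus strand) for Tnfaip3 and chr2:171504743-171504772 (minus strand) for Tlr2.
Nfkb1: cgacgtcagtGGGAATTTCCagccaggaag
Tnfaip3: tcacgtgactGGAAAGTCCCtcggaaatcc
Tlr2: aggcccttggGGGAATTCCCatacggagcc

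The kappaB consensus was present in 5 of the 9 promoters (Nfkbia, Nfkb1, Nfkb2, Tlr2 and Tnfaip3), beside 4.18% of all 33469 promoters of the same length. A second form, GGGA followed by any 2 bases and TTCC, was searched on both strands, overlaps with the consensus and was present in 4 of the 9, the same genes without Tlr2, beside 1.3% of all promoters. In Tlr2 the match shown reads the same on both strands, and another, GGGGAATTCC, overlaps it and starts 1 base further upstream. Tnfaip3 held 3 matches, of which the one at 67 bases before the start is shown, and the others, GGGACACCCC and GGAAATCCCC, lie at 170 and 55 bases before it. An interferon-type motif, GAAA followed by any 2 bases and GAAA on either strand, was present in Myd88 alone of the 9, beside 3.92% of all promoters, in the window chr8:127956227-127956256 (minus strand).
Myd88: gagcttctcgGAAAGCGAAAggaggagggg

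A match is a description of these letters and not of binding. Of the genes with the kappaB consensus, Nfkbia, Nfkb2 and Tlr2 peaked in melatonin animal 6, and Nfkb1 was the steadiest gene of the 8. Tlr4 and Rela, with no match in this window, also had their highest value in melatonin animal 6 and their lowest in vehicle animal 3. Myd88, also without the consensus, was highest in melatonin animal 6 and lowest in vehicle animal 2. Only the bases from 250 before to 50 after each start were searched. The part of the motif in these values was not tested.

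The order of the animals was alike for several of the genes and cut across the treatment. Melatonin animal 6 was highest for Tlr2, Tlr4, Myd88, Rela, Nfkb2 and Nfkbia, and vehicle animal 3 was lowest for Tlr4, Rela, Nfkb2 and Nfkbia. Nfkbia had across the 6 animals a Pearson correlation on the log2(FPKM + 1) scale of 0.871 with Tlr4, 0.812 with Nfkb2, 0.777 with Rela, 0.767 with Myd88 and 0.751 with Tlr2, and of 0.442 with Tlr3 and 0.245 with Nfkb1. Without melatonin animal 6 and vehicle animal 3, the animals farthest from the median of Nfkbia, the correlation was 0.804 with Tlr4 and 0.705 with Myd88, but 0.344 with Nfkb2, 0.294 with Tlr3, 0.146 with Tlr2 and -0.19 with Rela, and it was 0.723 with Nfkb1. Spearman's rho over the 6 animals was 0.829 with Tlr4, 0.886 with Myd88, 0.771 with each of Nfkb2, Rela and Tlr2, 0.657 with Tlr3 and 0.429 with Nfkb1. These are descriptions over 6 animals that share their libraries, and they carry no test.

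The 5 genes most like Nfkbia over the 6 animals, ranked by that correlation among 7663 genes with at least 5 FPKM, were Bcl10, Ptk6, Timp1, Nucb2 and Pla2g2a. Bcl10, an adaptor that links receptors of the immune system to the IkappaB kinases, had a correlation of 0.994 (Spearman 1.00) and was listed at 90.4, 104 and 128 FPKM in melatonin animals 4, 5 and 6, against 111, 89.8 and 82.9 FPKM in vehicle animals 1, 2 and 3. The epithelial kinase gene Ptk6 also had 0.994, the protease inhibitor Timp1 0.988 and Nucb2 0.981. Pla2g2a, a secreted phospholipase that kills bacteria, had 0.979 and spanned the widest range of the 5, 68.0 times from lowest to highest: 72.5, 567 and 3212 FPKM in melatonin animals 4, 5 and 6, against 1084, 79.6 and 47.3 FPKM in vehicle animals 1, 2 and 3. With so many genes ranked over 6 animals, high values are found for many: 121 of the 7663 (1.58%) had a correlation of at least 0.9.

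**Figure D4:**
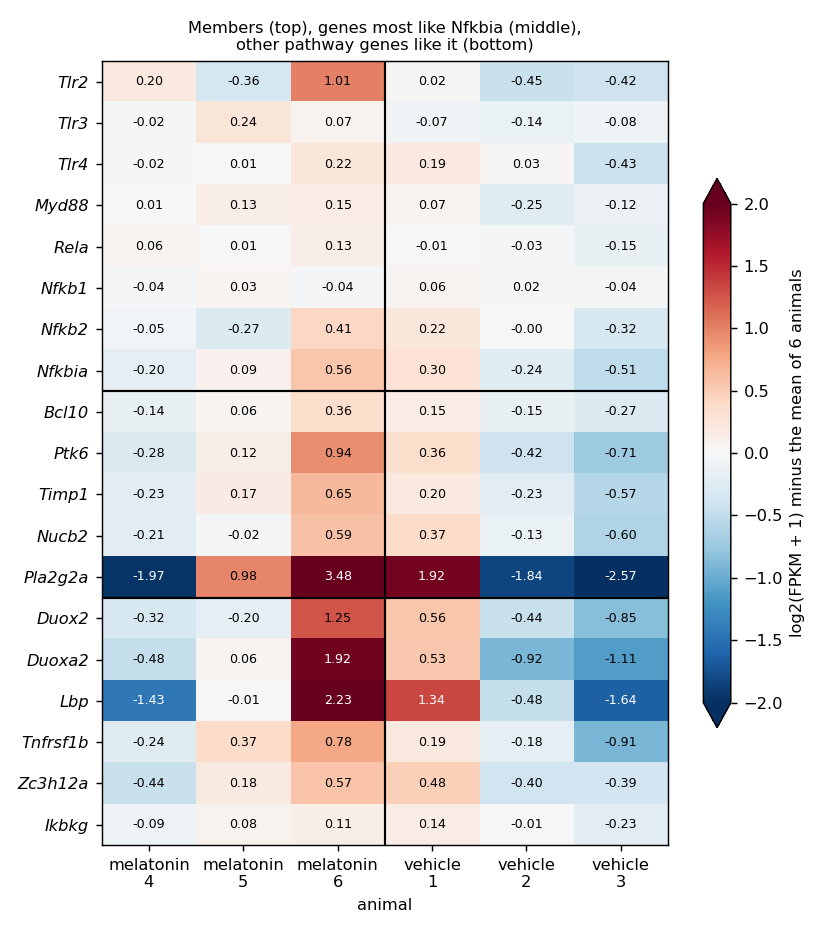
Log2(FPKM + 1) minus the mean of the 6 animals, melatonin animals in the left 3 columns and vehicle animals in the right 3. The 8 measured genes are in the top block, the 5 genes most like Nfkbia in the middle, and the other pathway genes with a correlation of at least 0.9 with it at the bottom. Melatonin animal 6 and vehicle animal 1 are high and vehicle animal 3 is low for Nfkbia, Lbp, Duox2, Duoxa2 and Pla2g2a.

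Of the 68 tested genes of the wider pathway, 6 had a correlation of at least 0.9 with Nfkbia and were picked out for it: Duox2, Duoxa2, Lbp, Tnfrsf1b, Zc3h12a and Ikbkg. This stands beside 1.58% of the 7663 ranked genes, a set of at least 5 FPKM that leaves out Tnfrsf1b. Of the 68, that set also leaves out Tlr1, Tlr5, Il1r1, Ripk2, Otulin and Csf1, so the shares rest on different filters. Lbp, the lipopolysaccharide-binding protein that hands its ligand to Cd14 and Tlr4, was listed at 18.2, 50.5 and 241 FPKM in melatonin animals 4, 5 and 6, against 130, 36.0 and 15.6 FPKM in vehicle animals 1, 2 and 3, a range of 15.4 times. Duox2, the oxidase that produces hydrogen peroxide at the epithelial surface, was listed at 58.6, 63.8 and 176 FPKM in melatonin animals 4, 5 and 6, against 109, 53.8 and 40.3 FPKM in vehicle animals 1, 2 and 3. Its maturation factor Duoxa2 was listed at 20.4, 30.02 and 112 FPKM after melatonin, against 42.2, 14.8 and 12.8 FPKM after vehicle. Zc3h12a (Regnase-1), a nuclease that limits inflammatory transcripts, was listed at 21.1, 32.9 and 43.5 FPKM after melatonin, against 40.6, 21.7 and 21.9 FPKM after vehicle. In Lbp, Duox2, Duoxa2 and Zc3h12a melatonin animal 6 stood highest and vehicle animal 1 second, so the groups overlapped. Ikbkb, the kinase that marks Nfkbia for degradation and also picked out after its values were seen, ran the other way with a correlation of -0.96, as did Tab2 at -0.929 and Rnf31 at -0.914. In the ranking of 7663 genes, from most to least like Nfkbia, these 3 stood at 7632, 7564 and 7517, so other genes ran as strongly the other way. Ikbkb was listed at 38.6, 36.7 and 34.6 FPKM in melatonin animals 4, 5 and 6, against 36.7, 40.7 and 43.4 FPKM in vehicle animals 1, 2 and 3.

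The summed markers of T and NK cells shared the ends of this order, highest in melatonin animal 6 and lowest in vehicle animal 3. Their summed level was 12.7, 23.5 and 36.3 FPKM in melatonin animals 4, 5 and 6, against 18.0, 16.6 and 8.65 FPKM in vehicle animals 1, 2 and 3, over 15 of 16 listed genes with a row, of which 9 had a mean of at least 1 FPKM. The highest of them were Nkg7 and Cd3e. Cd3e peaked in melatonin animal 6, at 5.07 FPKM, but Nkg7 in melatonin animal 5, at 6.09 FPKM. Other genes of the list differed from the sum as well. Ncr1 was highest in vehicle animal 3, Cd4 in vehicle animal 1, Cd3g in vehicle animal 2 and Itgae in melatonin animal 4. Macrophage and dendritic cell markers, most of whose sum is Cd14, followed by C1qc, had 174, 138 and 164 FPKM after melatonin, against 195, 122 and 183 FPKM after vehicle, with 14 of 16 listed genes in the table. Genes listed for neutrophils, led by S100a9 and Ly6g6c, had 8.51 to 15.1 FPKM after melatonin and 6.64 to 18.2 FPKM after vehicle (6 of 10 listed genes in the table). That sum includes Ly6g6c, which is not Ly6g, and so does not measure neutrophils alone. The part of these cells in the values of Nfkbia and the genes like it was not tested.

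Most markers of the remaining cell types stayed at low levels, but Sdc1, Mylk, Esam and Fbln1 did not. B and plasma cell markers summed to 123 to 137 FPKM after melatonin and 104 to 129 FPKM after vehicle, nearly all of it Sdc1, which epithelium expresses too, followed by Cd79b. Endothelial markers, led by Esam and Pecam1, had 18.7 to 26.5 FPKM after melatonin and 19.5 to 25.7 FPKM after vehicle. Most of that sum was Esam, with a mean of 19.1 FPKM, beside 2.685 for Pecam1, 0.13 for Cdh5 and 0.00833 for Kdr. Fibroblast markers, led by Fbln1 and Col1a2, had 11.7 to 14.9 FPKM after melatonin and 11.8 to 16.9 FPKM after vehicle. Fbln1 alone had a mean of 10.5 FPKM, beside 1.85 for Col1a2, 0.03 for Col3a1 and 0.0883 for Dcn. Smooth muscle markers, led by Mylk and Des, had 48.5 to 70.5 FPKM after melatonin and 63.4 to 72.5 FPKM after vehicle. Mylk alone had a mean of 50.4 FPKM. Des, Myh11 and Tagln had 4.975, 3.085 and 3.03 FPKM, and Acta2 and Actg2 had 0.0683 and 0.0383 FPKM. Sums that rest mostly on 1 gene do not measure how much of a cell type was present.

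Around the 8 genes, 103 further genes of the pathway were listed by role, of which 91 had a row and 68 were tested. limma called 0 of the 68 in either direction, and 2 had an unadjusted p under 0.05, beside 3.75% of all features. The log2 changes were above 0 for 38 and below 0 for 30, beside 46% above 0 over all features, with a median of 0.01. Each melatonin animal stood above each vehicle animal for 3 of the 68 (Cnpy3, Cflar and Csf1), beside 4.04% of all features, and below for 1 (Ikbke), beside 4.33%. The 3 genes with the smallest p of each role are given by their values.

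Among 9 tested receptors, the median log2 change was 0.16, with 6 above 0. The tumour necrosis factor receptor genes Tnfrsf1b and Tnfrsf1a had log2 changes of 0.61 ± 0.37 SE and 0.25 ± 0.17 SE, and Nod1, a sensor of bacterial peptidoglycan, -0.21 ± 0.21 SE (limma adjusted p = 0.972 for each). Among 6 tested co-receptors and chaperones, 3 were above 0. The receptor chaperone Hsp90b1 averaged 377 ± 124 FPKM after melatonin and 258 ± 13.9 FPKM after vehicle (limma adjusted p = 0.972). Its groups overlapped, with its lowest value, 234 FPKM, in melatonin animal 4. Its partner Cnpy3, which helps Toll-like receptors to fold, averaged 24.8 ± 1.63 FPKM after melatonin and 21.0 ± 0.836 FPKM after vehicle, with all melatonin animals above all vehicle animals. Ly96 (MD-2), the subunit through which Tlr4 binds lipopolysaccharide, averaged 24.9 ± 7.85 FPKM after melatonin and 32.3 ± 6.95 FPKM after vehicle.

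Among 21 tested adaptors and kinases, 9 log2 changes were above 0 and 12 below, with a median of -0.07. Ikbke, an IkappaB kinase-related gene, had the smallest p of the wider pathway (0.0224 unadjusted, limma adjusted p = 0.972). It averaged 15.6 ± 1.66 FPKM after melatonin and 21.0 ± 2.55 FPKM after vehicle (SD, n = 3 each; log2 change -0.40 ± 0.14 SE), and each melatonin animal stood below each vehicle animal. Traf6, the ubiquitin ligase downstream of MyD88, averaged 13.1 ± 0.758 FPKM after melatonin and 10.4 ± 3.20 FPKM after vehicle. Rbck1, part of the linear ubiquitin ligase complex, averaged 58.3 ± 3.45 FPKM after melatonin and 52.2 ± 5.68 FPKM after vehicle.

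Among 15 tested inhibitors and modulators, 9 log2 changes were above 0, with a median of 0.09. Nfkbiz, an atypical nuclear IkappaB protein, averaged 14.7 ± 4.36 FPKM after melatonin and 10.2 ± 1.93 FPKM after vehicle, and Bcl3, another, averaged 45.4 ± 20.4 FPKM after melatonin and 28.4 ± 8.25 FPKM after vehicle. Tnip1, the binding partner of A20, averaged 145 ± 16.7 FPKM after melatonin and 126 ± 10.4 FPKM after vehicle. Among 17 tested target genes, 11 were above 0, with a median of 0.44, beside 46% and -0.02 over all features. By animal, the median log2 difference of these targets from the vehicle mean was 0.05, 0.04 and 0.41 in melatonin animals 4, 5 and 6, against 0.14, -0.04 and -0.10 in vehicle animals 1, 2 and 3. From the mean of all 6 animals it was -0.12, -0.01 and 0.185 after melatonin, against 0.02, -0.17 and -0.33 after vehicle. Melatonin animal 6 was highest and vehicle animal 3 lowest on both scales, and vehicle animal 3 lay farthest out on the second. Cflar, an inhibitor of death receptor signalling, averaged 15.5 ± 4.24 FPKM after melatonin and 10.6 ± 1.71 FPKM after vehicle (unadjusted p = 0.0451, limma adjusted p = 0.972), with its highest value, 20.4 FPKM, in melatonin animal 4. Psmb9, an immunoproteasome subunit that interferon also induces, averaged 67.7 ± 26.4 FPKM after melatonin and 37.96 ± 23.2 FPKM after vehicle. Csf1 averaged 1.95 ± 0.259 FPKM after melatonin and 1.14 ± 0.183 FPKM after vehicle, a level as low as that of Tlr2, and its counting error was not estimated. Several classical targets were near the limit of detection: Icam1, Cxcl1, Cxcl2, Tnf and Il1b had means over the 6 animals from 0.175 to 0.582 FPKM, picked out after their values were seen, and no row was found for Il6.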

How the data were processed

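The authors deposited FPKM values for each RefSeq transcript and animal, per the file headers. Beside these stand the authors' group means, the log2 ratio of the means and a score under the heading of a probability. BWA (0.7.10-r789), Bowtie2 and RSEM are listed in the submitters' processing notes, with build rn6 and no roles. No strand marking is described in the labels' protocols, so overlapping antisense transcripts are not told apart. RNA integrity numbers were 9.0 to 9.7.

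RefSeq (GRCr8, used for names and promoters) matched 12883 of 13647 transcripts by accession. A further 9 were named from the annotation in the authors' file, and transcripts of a gene were summed. Each measured member had 1 transcript. limma 3.58.1 (R 4.3.3) was run with a mean trend on log2(FPKM + 1) for the 10137 features with a mean of at least 1 FPKM. Tests were two-sided, with Benjamini-Hochberg adjustment and 0.05 as threshold. On this scale the change of low genes is understated. The procedure was tested on simulated data.

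Depth was estimated here from the FPKM steps of transcripts of 100 to 700 bases. With 35 bases taken off each length, between 84.2% and 88.8% of low values came within 0.1 of whole reads.

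The members, the gene lists and the rule for named genes were chosen with earlier results of these data known. The rule took all members, the 3 smallest p per pathway list, the 2 highest means per cell type list and the 5 genes most like the member of widest range. A gene that the rule takes is not reported here. Alternatives were another pseudocount, 2 filters, 2 scalings, no mean trend, unsummed transcripts and leaving out each animal. That labels give separate animals is the only sign of biological replication.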

Additional observations from a re-analysis of the deposited data

How the results depend on the processing

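limma called 0 members and 0 genes of the wider pathway lists under each of the 13 alternatives. Over all features, limma called 0 in the main setting, 1 without a filter on low values, 1 without the mean trend, and from 0 to 4 with an animal left out (4 without melatonin animal 4, 3 without vehicle animal 1); the cause was not tested. With an animal left out, the log2 change of Nfkb2 ran from -0.13 (without melatonin animal 6; -0.08 without vehicle animal 3) to 0.21, and that of Tlr4 from -0.036 (without vehicle animal 3) to 0.28; the cause was not tested. Likewise the log2 change of Nfkbia ran from 0.10 to 0.52, that of Tlr2 from 0.20 to 0.89, that of Tlr3 from 0.12 to 0.26, that of Myd88 from 0.12 to 0.28, that of Rela from 0.09 to 0.16 and that of Nfkb1 from -0.06 to -0.01. Tlr2 stood at 0.80 with a pseudocount of 0.1. The other scalings moved the median of all features from -0.02 to 8e-04 (median-of-ratios) and -0.0078 (upper quartile) and turned no member. Over these alternatives the smallest adjusted p of a member was 0.481 (limma). No paired analysis was possible because the groups share no animal numbers. Depth limits Tlr2, with 9 to 43 estimated reads, and the genes under 1 FPKM. It also limits other genes of a few FPKM, such as Csf1 and Tnfrsf1b, with means of 1.55 and 2.38 FPKM.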
